A study of Homo sapiens with 6 samples.

Results

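The subtelomeric ends of the human chromosome arms were examined in U2OS, a human osteosarcoma cell line, by nascent-strand sequencing (NS-seq). The assay reads short nascent DNA strands, which begin where replication starts. Peaks were taken as subtelomeric where they start in the first 1 Mb of chromosomes 1 to 12 and 16 to 20, or in the last 1 Mb of chromosomes 1 to 22, which gives 17 short (p) and 22 long (q) arms. The short arms of the acrocentric chromosomes and the ends of chromosome X are not part of this set. Of 945863 peaks in the 4 deposited lists, 25229 met this definition. They numbered 5216 and 6210 with gl3 and 8362 and 5441 with siORCA. All coordinates are on T2T-CHM13, and the end of a chromosome was set at the largest peak end on it in any list. The outermost q-arm peak of at least 1 list therefore touches the end by construction, whereas on p arms the end is the first base of the assembly.

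All samples come from U2OS cells transfected with siRNA. The 2 control samples received the siRNA gl3 and the 2 siORCA samples an siRNA against ORCA, the product of LRWD1, a protein that binds the origin recognition complex (ORC) and helps to keep it on chromatin. Whether the replicates are separate cultures is not given in the labels, so p-values here reflect the spread between these particular samples, which may be technical. Genomic DNA of each transfection (2 samples in the labels) was not analysed here, so differences in DNA copy number and in origin use cannot be told apart. Peaks were called per sample, and the lists hold no read counts, so depth is unknown and the number of peaks in a list can move with it. The whole lists covered 58.5 Mb and 67.1 Mb with gl3 and 86.2 Mb and 64.0 Mb with siORCA. Covered length here means the summed length of peaks, and its share is given relative to these totals. Where values follow each other as pairs, the first of a pair belongs to replicate 1 and the other to replicate 2, and runs of 4 values start with the gl3 controls.

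Human chromosomes end in telomeres, arrays of a short G-rich repeat bound by the shelterin complex, whose subunit TRF2 can recruit ORC. Next to the array lie subtelomeric sequences that are duplicated on many arms, followed by unique DNA that is often rich in genes. U2OS keeps its telomeres by the alternative lengthening pathway, which uses recombination and no telomerase, and such telomeres are long and uneven. Reads from telomeric and duplicated sequence can align to several arms, so the ends of different arms are not independent measurements.

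Peaks were far denser in the subtelomeric megabase than in the genome at large. They covered 53.4 and 56.8 kb per Mb with gl3 and 71.5 and 54.4 kb per Mb with siORCA, against 18.8, 21.5, 27.7 and 20.5 kb per Mb of the whole assembly. The density was thus 2.84-fold, 2.64-fold, 2.58-fold and 2.65-fold the genome's, in the same order. The next 4 Mb of the same arms were nearly as dense, at 2.66-fold, 2.42-fold, 2.45-fold and 2.59-fold. The log2 ratio of the terminal 1 Mb over the stretch from 1 to 5 Mb was 0.10 and 0.12 with gl3 and 0.08 and 0.03 with siORCA. Its mean of 0.08 ± 0.04 (SD, n = 4) was above 0 in 4 of 4 samples (two-sided exact sign-flip permutation test, p = 0.13, the smallest that 4 samples allow). With a terminal stretch of 500 kb the mean turned to -0.17.

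Coverage was not even along the megabase. Averaged over the 39 arms, the first 50 kb held 3030 bp and 3163 bp with gl3 and 4500 bp and 2222 bp with siORCA. The next 50 kb held 1613, 1863, 2243 and 1756 bp in the same order, and the lowest bin of the megabase lay between 50 and 150 kb in every sample. Further in, coverage was higher, with a maximum at 650 to 700 kb, where it was 3676, 3956, 4727 and 3753 bp. All 4 samples thus traced the same shape, and siORCA 2 differed from the others mainly in its lower first bin.

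**Figure D1:**
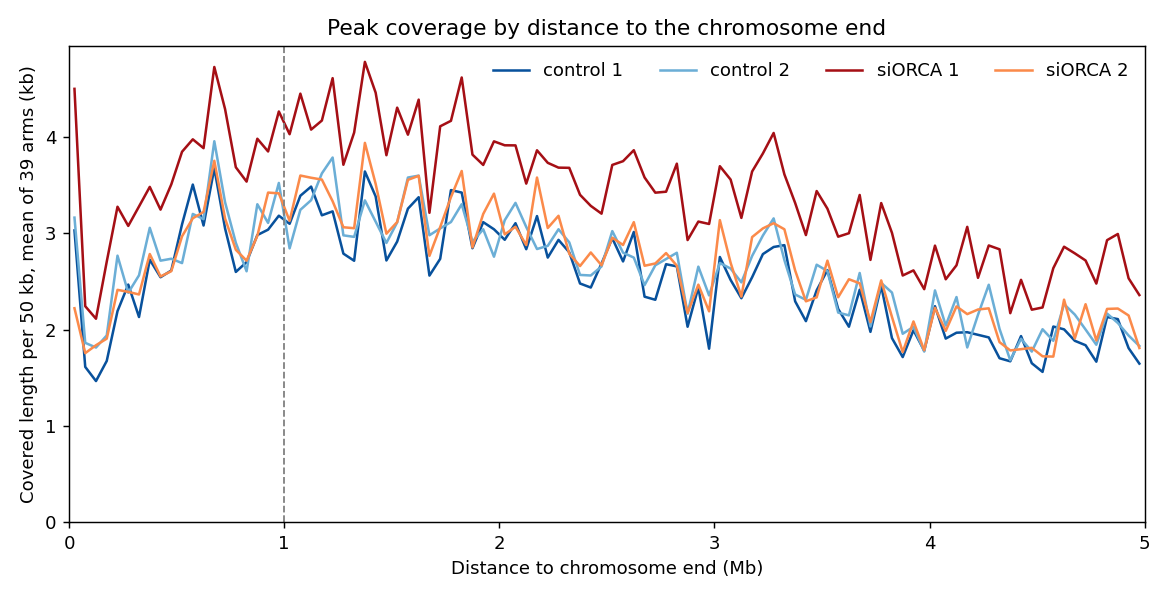
Covered length per 50 kb (vertical axis, kb, mean of 39 arms) by distance to the chromosome end (horizontal axis, Mb), 1 line per sample, with a dashed line at 1 Mb. In control 1 the line falls from 3030 bp in the first bin to 1466 bp at 100 to 150 kb and climbs to 3676 bp at 650 to 700 kb; siORCA 1 lies above the other lines, and its list covers most in all.

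The trough from 50 to 200 kb was measured against the rest of the megabase. The log2 density ratio of 50 to 200 kb over 200 to 1000 kb was -0.85 and -0.68 with gl3 and -0.67 and -0.67 with siORCA. The mean of -0.72 ± 0.09 (SD, n = 4) was below 0 in 4 of 4 samples (exact sign-flip permutation test, p = 0.13, the smallest possible), for a stretch chosen after the values were seen. The trough was found on most arms one by one: 32 and 31 of 39 arms with gl3 and 32 and 30 with siORCA were less dense there than further in. Its share of the list was 0.317% and 0.326% with gl3 and 0.319% and 0.335% with siORCA, so the groups overlapped (exact permutation test, p = 0.667). Even in the trough, density was 1.69-fold to 1.78-fold that of the genome.

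The outermost kilobases carried the densest coverage. In the first 1 kb from the end, peaks covered 95.8% of bases over all arms in control 1, 83.0% in control 2 and 96.9% in siORCA 1, but 32.3% in siORCA 2. From 1 to 2 kb these values were 77.2%, 61.3%, 81.0% and 29.2%, and from 2 to 3 kb 28.8%, 24.4%, 33.9% and 8.32%. From 3 to 4 kb they were 1.45%, 2.95%, 1.93% and 0, so nearly all terminal coverage lay within 3 kb of the end. Between 4 and 6 kb, no sample covered more than 1.99% of a 1 kb bin over all arms. No repeat or gene annotation of this build was used here, so whether the covered stretch is the telomere repeat array was not tested.

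**Figure D2:**
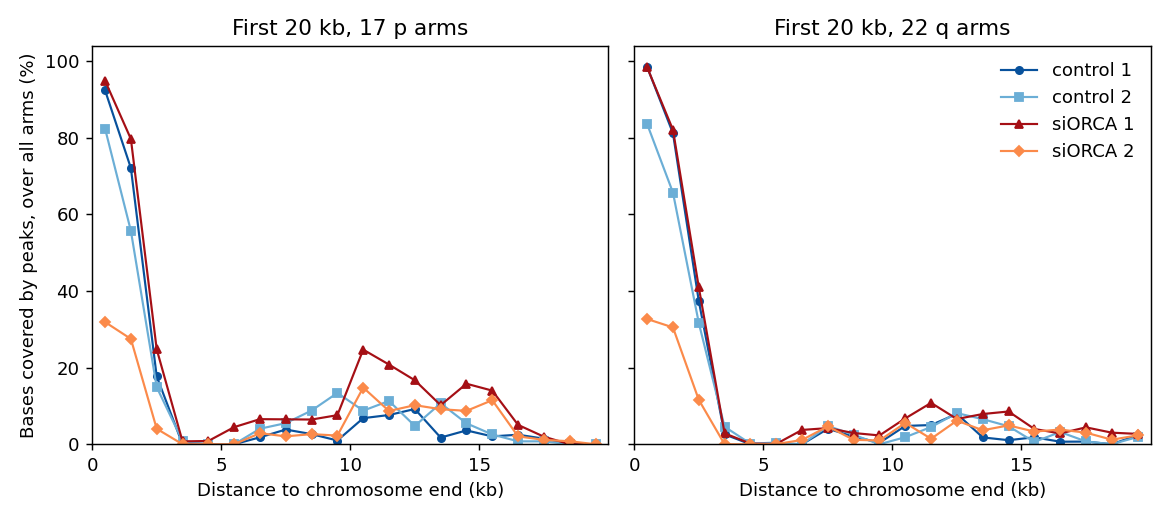
Percent of bases covered by peaks (vertical axis) in 1 kb bins of distance to the chromosome end (horizontal axis, kb), over 17 p arms (left) and 22 q arms (right), 1 line per sample. In the first 1 kb of q arms, 98.5% and 83.6% of bases were covered with gl3 and 98.4% and 32.7% with siORCA; on p arms the siORCA 1 line has a second, lower maximum of 24.7% at 10 to 11 kb.

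A peak within 1 kb of the end was present on 39 of 39 arms in control 1, control 2 and siORCA 1, and on 29 in siORCA 2. The arms with none in siORCA 2 were 2q, 4p, 4q, 5p, 5q, 7p, 8p, 8q, 17p and 20q. On 5q and 20q the outermost siORCA 2 peak lay 21390 and 8932 bp from the end, and on the other arms of this group between 1095 and 1991 bp. Merged over the lists, each of the 39 ends held 1 region within 1 kb, of which 37 were found in all 4 lists, in siORCA 2 in part through peaks further than 1 kb from the end. The remaining ends, 5q and 20q, were covered in both controls and siORCA 1 only.

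These end peaks were broad, and in both controls and siORCA 1 they were at the median stronger than most peaks of their list. Their median width was 1846 bp and 1366 bp with gl3 and 1888 bp and 452 bp with siORCA. In both controls and siORCA 1 they were wider than at least 99.2% of peaks at the median, against 78.8% in siORCA 2. The authors' fold enrichment, which is a peak's signal over the caller's background in its own list, had a median of 6.97 and 6.16 with gl3 and 8.69 and 4.08 with siORCA. By fold, the end peaks ranked at a median percentile of 94.5, 90.6, 88.1 and 44.9 of their own lists. The end peaks of siORCA 2 were thus narrower and ranked lower in their list than those of the other siORCA sample.

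Among the ends found in all 4 lists, those of 21q, 3q and 1q were the widest of the regions that touch the end. The 21q region (chromosome 21, 45087189 to 45090569) was covered over 3367 bp and 3342 bp with gl3 and 3381 bp and 1271 bp with siORCA. The 3q region (chromosome 3, 201102755 to 201105943) was covered over 3188, 2746, 3188 and 700 bp. The 1q region (chromosome 1, 248384419 to 248387288) was covered over 2847, 2417, 2520 and 598 bp. In each of them siORCA 2 was lowest and the other samples lay closer together.

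The lowest sample was the same at every end. Over the first 5 kb, siORCA 2 covered least on 39 of 39 arms, and siORCA 1 covered most on 27, control 1 on 7 and control 2 on 2, with ties on the rest. The mean covered length per arm was 2033 bp and 1718 bp with gl3 and 2142 bp and 699 bp with siORCA. As a share of the list, the first 5 kb held 0.135% and 0.0998% with gl3 and 0.0976% and 0.0425% with siORCA. Both siORCA shares were below both controls, but siORCA 1 lay only just below control 2 (0.118 ± 0.0252% against 0.0701 ± 0.0389%, SD, n = 2 each; two-sided exact permutation test, p = 0.333, the smallest this design allows). The difference was -0.0476 percentage points, and ran from -0.0201 without siORCA 2 to -0.0751 without siORCA 1. With lists shortened to the same covered length the groups overlapped, at 0.135% and 0.114% in control and 0.143% and 0.0450% in siORCA. With the cut at a −log10 q of 3 the shares were 0.318% and 0.198% in control and 0.132% and 0.0634% in siORCA, with no overlap and a wider difference of -0.16 percentage points (exact permutation test, p = 0.333). Covered length itself changed little with this cut, from 79.3, 67, 83.5 and 27.2 kb to 79.3, 66.3, 83.1 and 26.1 kb. The cut kept 35.9% and 41.5% of all peaks with gl3 and 64.6% and 56.8% with siORCA. The totals behind these shares were thus cut unequally, and siORCA 1 still covered most. siORCA 2 was lowest under each of these lists, whereas the place of siORCA 1 relative to the controls changed with the list.

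Just inside the ends, from 5 to 50 kb, the order differed. Peaks there covered 38.9 and 56.4 kb over all arms with gl3 and 91.4 and 59.4 kb with siORCA. The shares were 0.0665%, 0.0840%, 0.106% and 0.0928%, so both siORCA samples lay above both controls (0.0752 ± 0.0124% against 0.0994 ± 0.00939%, SD, n = 2 each; exact permutation test, p = 0.333, the smallest possible). Both siORCA shares also lay above both controls when the lists were cut to a −log10 q of 3 or more (0.0846%, 0.102%, 0.126% and 0.106%) or with lists of the same covered length (0.0665%, 0.0920%, 0.129% and 0.0972%). The difference of 0.0241 percentage points ran from 0.0153 to 0.0329 when samples were left out one by one. The stretches of the first 5 kb and of 5 to 50 kb were chosen after the values were seen.

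Within the first 20 kb of p arms, both siORCA samples covered more than both controls in several bins between 10 and 16 kb from the end. From 10 to 11 kb, 6.81% and 8.77% of bases were covered with gl3 and 24.7% and 14.8% with siORCA. From 15 to 16 kb the values were 2.05%, 2.55%, 14% and 11.5%. In the bins between them the groups overlapped at 11 to 12 and 13 to 14 kb. They did not at 12 to 13 kb (9.20%, 4.78%, 16.7% and 10.2%) or 14 to 15 kb (3.61%, 5.46%, 15.8% and 8.71%). In control 2 the fullest p-arm bin from 5 to 20 kb lay further out, at 9 to 10 kb (13.4%). Only some arms carried this coverage: from 10 to 11 kb, a peak was present on 6, 6, 8 and 7 of 17 p arms. On q arms, no bin from 5 to 17 kb was covered over more than 10.8% in any sample. There too both siORCA samples lay above both controls at 10 to 11 kb (4.78%, 1.84%, 6.75% and 5.56%), 14 to 15 kb and 15 to 16 kb. At 12 to 13 kb they lay below (7.93%, 8.13%, 6.59% and 6.16%). The bins named were picked after the values were seen, and none was tested.

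The arms with the longest coverage from 5 to 50 kb, picked after the values were seen, were 17p, 12p and 18q. On 12p it was 1445 bp and 2663 bp with gl3 and 5600 bp and 5285 bp with siORCA, so both siORCA samples were higher. On 17p it was 3598, 6080, 4425 and 4888 bp, and on 18q 4693, 1865, 4313 and 3713 bp, with siORCA between the controls on both. On 8 and 4 arms with gl3 and 4 and 5 arms with siORCA nothing was covered in this stretch.

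Over the first 50 kb as a whole, the siORCA samples lay on either side of the controls. The share was 0.202% and 0.184% with gl3 and 0.204% and 0.135% with siORCA, and the groups overlapped (0.193 ± 0.0128% and 0.169 ± 0.0483%, SD, n = 2 each; exact permutation test, p = 1). Without siORCA 2 the difference turned from -0.0234 to 0.0107 percentage points. With the cut at a −log10 q of 3, both siORCA shares lay below both controls, at 0.402% and 0.300% with gl3 and 0.258% and 0.169% with siORCA, a difference of -0.138 (exact permutation test, p = 0.333). That cut removed a larger part of the peaks from the gl3 lists than from the siORCA lists. The log2 density ratio of the first 50 kb over the rest of the megabase was 0.19, 0.16 and 0.35 in control 1, control 2 and siORCA 1 and -0.31 in siORCA 2. Its mean of 0.10 ± 0.28 (SD, n = 4) was within the spread between samples (exact sign-flip permutation test, p = 0.5). For the first 5 kb alone, the ratio to the rest of the megabase was 2.98 and 2.63 with gl3 and 2.63 and 1.37 with siORCA, above 0 in 4 of 4 samples (p = 0.13, exact sign-flip permutation, the smallest possible). This stretch was chosen after the values were seen, and on q arms a peak sets the end, which favours coverage there. On p arms alone the first 5 kb held 364, 308, 409 and 127 kb per Mb. Their last megabase as a whole held 48.8, 52.7, 65.5 and 48.8 kb per Mb.

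The arms differed widely in how much of their last megabase was covered. Arm 7p was highest, at 121 kb and 95.3 kb with gl3 and 131 kb and 144 kb with siORCA. It was followed by 8q, at 109, 102, 130 and 136 kb, and 22q, at 105, 99.7, 130 and 107 kb. The means over 4 samples were 123 ± 20.8 kb, 119 ± 16.1 kb and 110 ± 13.3 kb (SD, n = 4), a spread that also holds the unequal size of the lists. Their order was not the same in every sample: in control 2, 7p was the lowest of these arms. Arm 3p was lowest, at 9.14, 7.66, 10.7 and 3.66 kb. The next lowest were 10p, at 10.3, 17.2, 23.6 and 10.2 kb, and 1q, at 17.4, 22.4, 29.0 and 14.2 kb. Arm 3p had 18 to 52 peaks per sample in this megabase, whereas 7p had 258 to 363, so the highest and lowest arms did not overlap.

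The order of arms was shared by all samples. Spearman's rho of the shares across the 39 arms lay between 0.928 and 0.967 over the 6 pairs of samples. It was 0.965 between the controls, 0.936 between the siORCA samples and 0.967 between control 1 and siORCA 2. These values describe arms that share the same genome sequence and mappability in every sample, and arms are not independent replicates.

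**Figure D3:**
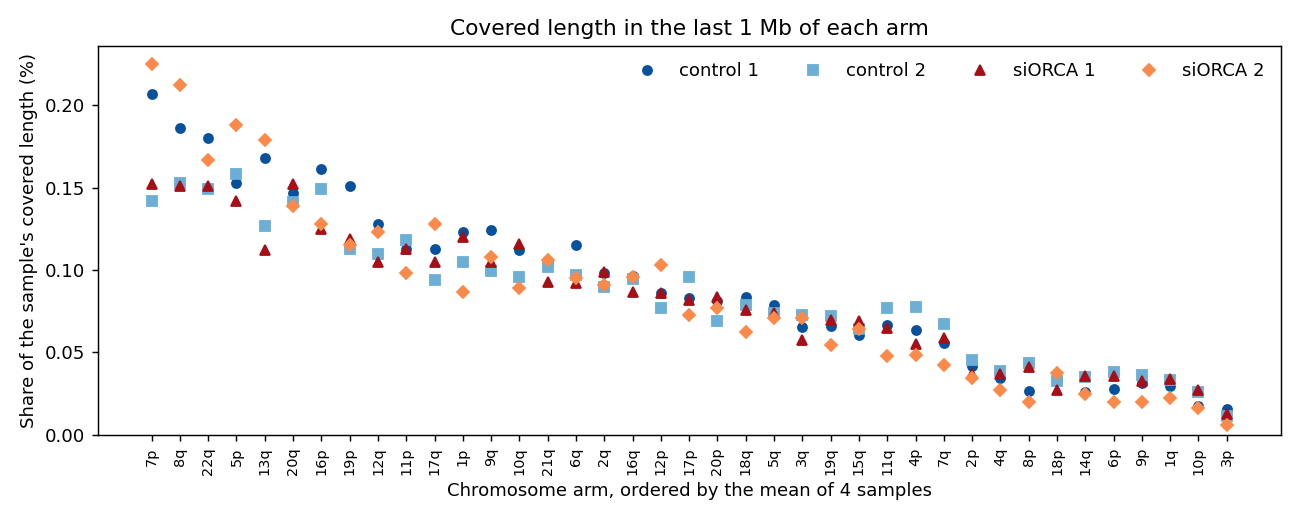
Share of each sample's covered length that falls in the last 1 Mb of an arm (vertical axis, %), for 39 arms ordered by the mean of 4 samples (horizontal axis), 1 symbol per sample. The shares run from 0.142% to 0.225% on 7p down to 0.00572% to 0.0156% on 3p.

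The last megabase of an arm was set against the next 4 Mb of the same arm. In all 4 samples it was denser on 20 arms and less dense on 12, and on 7 arms the sign differed between samples. The arms with the highest log2 ratio were 4q, 9p and 13q. On 4q the ratio was 1.23 and 0.90 with gl3 and 1.45 and 1.64 with siORCA, on 9p it was 1.49, 0.93, 1.02 and 1.62, and on 13q 1.43, 1.04, 0.87 and 1.42. On 4q and 9p the flank itself was sparse, at a mean of 9.94 and 9.36 kb per Mb, whereas the last megabase of 13q was among the fullest, at 98.5 ± 12.2 kb (SD, n = 4). The distal end of 4q carries in many genomes the D4Z4 macrosatellite, whose units hold DUX4; its position was not read here.

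The lowest ratios were found on 14q, 9q and 19q. On 14q, which carries the immunoglobulin heavy chain genes near its end, the ratio was -1.81 and -1.36 with gl3 and -1.43 and -1.68 with siORCA, and the last megabase held only 21.4 ± 7.34 kb against 62.2 kb per Mb of flank (SD, n = 4). On 9q the ratio was -0.65, -0.62, -0.67 and -0.84, and on 19q -0.84, -0.44, -0.47 and -0.99. All samples were below 0 on these arms, and within each sample 14q had the lowest ratio of all arms.

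**Figure D4:**
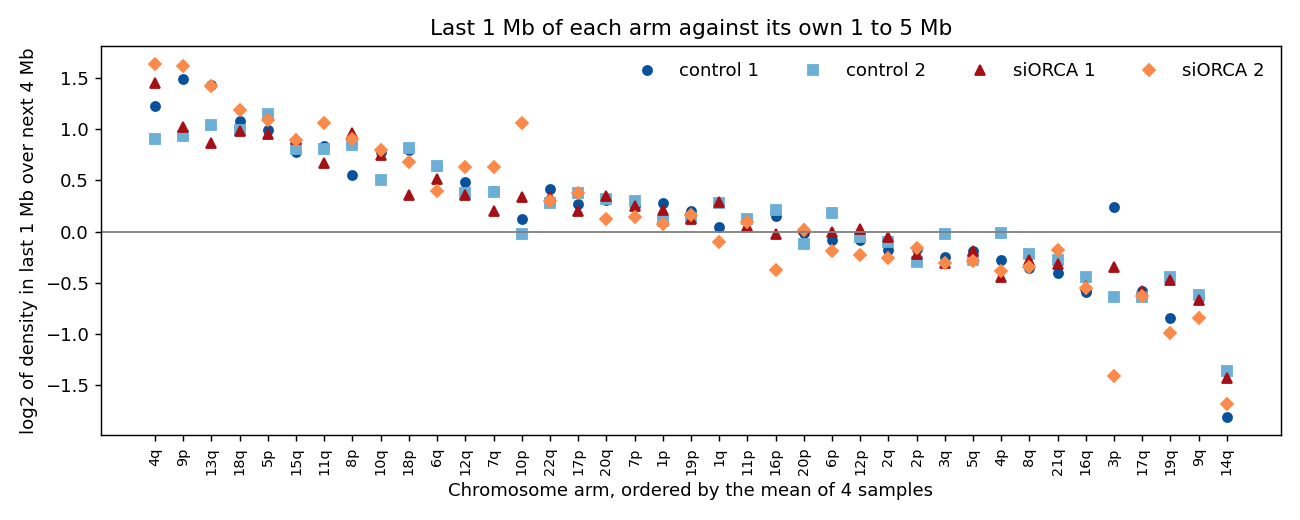
log2 of covered density in the last 1 Mb over that from 1 to 5 Mb (vertical axis) for 39 arms ordered by the mean of 4 samples (horizontal axis), 1 symbol per sample. The samples run from 0.90 to 1.64 on 4q and from -1.81 to -1.36 on 14q, and the samples spread most on 3p, from -1.41 to 0.24.

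Long-arm ends were denser than short-arm ends on average. The log2 ratio of q over p arms, per megabase, was 0.22 and 0.18 with gl3 and 0.22 and 0.27 with siORCA. The mean of 0.22 ± 0.03 (SD, n = 4) was above 0 in 4 of 4 samples (exact sign-flip permutation test, p = 0.13, the smallest possible). Chromosome by chromosome the order was mixed: the q end was above the p end on 10 of 17 chromosomes in control 1, siORCA 1 and siORCA 2, and on 9 in control 2. The acrocentric chromosomes enter with their q arms only, and these were mixed. Their means over 4 samples were 98.5 kb on 13q, 21.4 kb on 14q, 44.8 kb on 15q, 69.3 kb on 21q and 110 kb on 22q. Their part in the difference between q and p arms was not tested.

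After transfection with siORCA, the share of the list in the subtelomeric megabase stayed within the spread between replicates. It was 3.56% and 3.30% with gl3 and 3.23% and 3.32% with siORCA, and siORCA 2 lay between the controls (3.43 ± 0.182% against 3.27 ± 0.0580%, SD, n = 2 each; exact permutation test, p = 0.667). When the lists were cut to a −log10 q of 3 or more, both siORCA shares lay below both controls, with 3.51% and 3.69% against 4.45% and 4.01% (p = 0.333, exact permutation, the smallest possible). That cut kept 35.9% and 41.5% of all peaks with gl3 and 64.6% and 56.8% with siORCA, so the lists were cut unequally. With lists of the same covered length the shares overlapped, at 3.56% and 3.45% against 3.55% and 3.40%. The log2 ratio to the 1 to 5 Mb flank was lower with siORCA in both replicates (0.11 ± 0.02 and 0.06 ± 0.03, SD, n = 2 per group; exact permutation test, p = 0.333, the smallest possible), a difference of -0.05. With the stricter, unequal cut this ratio was 0.20 and 0.19 with gl3 and 0.11 and 0.06 with siORCA (exact permutation test, p = 0.333). The groups also stayed apart when peaks were clipped at the borders of the stretch. They overlapped in this ratio with lists of the same covered length (p = 0.667), with a terminal stretch of 500 kb (p = 0.667) and as the median over arms (p = 1, all by exact permutation).

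No single arm passed a test of siORCA against control. The test used limma on log2 of covered length over the sample's total, fitted over 2449 windows of 1 Mb across the genome, of which the 39 last megabases were part. In limma with Benjamini-Hochberg adjustment 0 of 39 arms were called at an adjusted p under 0.05, against 2 of all windows (0.0817%). An unadjusted p under 0.05 was found on 1 of 39 arms and in 75 of 2449 windows. The log2 difference (siORCA minus control) ran from -0.59 on 3p to 0.20 on 12p, with a median SE of 0.21. Of the 39 arms, 30 (76.9%) were lower in siORCA, against 61.6% of all windows, and the median difference was -0.08, against -0.09 over all windows. Median centring moved the median of the arms to 0.01, so its direction depends on the scaling.

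The smallest p of the arms that were lower in siORCA belonged to 4p, 11q and 9p. On 4p, peaks covered 37.1 kb and 52.1 kb with gl3 and 47.8 kb and 31.0 kb with siORCA, which is 0.0634%, 0.0777%, 0.0554% and 0.0485% of the lists. Both siORCA shares were lower, with a log2 difference of -0.43 (SE 0.20, limma, unadjusted p = 0.0326, adjusted p = 0.929, and between 0.152 and 1 over the other settings). On 11q the difference was -0.36 (SE 0.20) and on 9p -0.39 (SE 0.25), both with an adjusted p of 0.929 in limma. On 9p siORCA 1, at 0.0326%, lay between the controls at 0.0317% and 0.0361%, and without siORCA 2 the difference was -0.07.

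Of the arms that were higher, 12p, 17q and 15q had the smallest p. On 12p the covered length was 50.4 kb and 51.7 kb with gl3 and 74.1 kb and 66.0 kb with siORCA, a log2 difference of 0.20 (SE 0.20, limma, adjusted p = 0.929). The shares were 0.0862%, 0.0770%, 0.0860% and 0.103%, so the groups overlapped. On 17q the difference was 0.17 (SE 0.21, adjusted p = 0.929 in limma) and on 15q 0.10 (SE 0.20, adjusted p = 0.963 in limma). Shares did not overlap between the groups on 1 arm as higher, 15q, and on 9 as lower. These are 2.56% and 23.1% of the arms, where 11.3% and 17.3% of all windows separated in these directions.

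**Figure D5:**
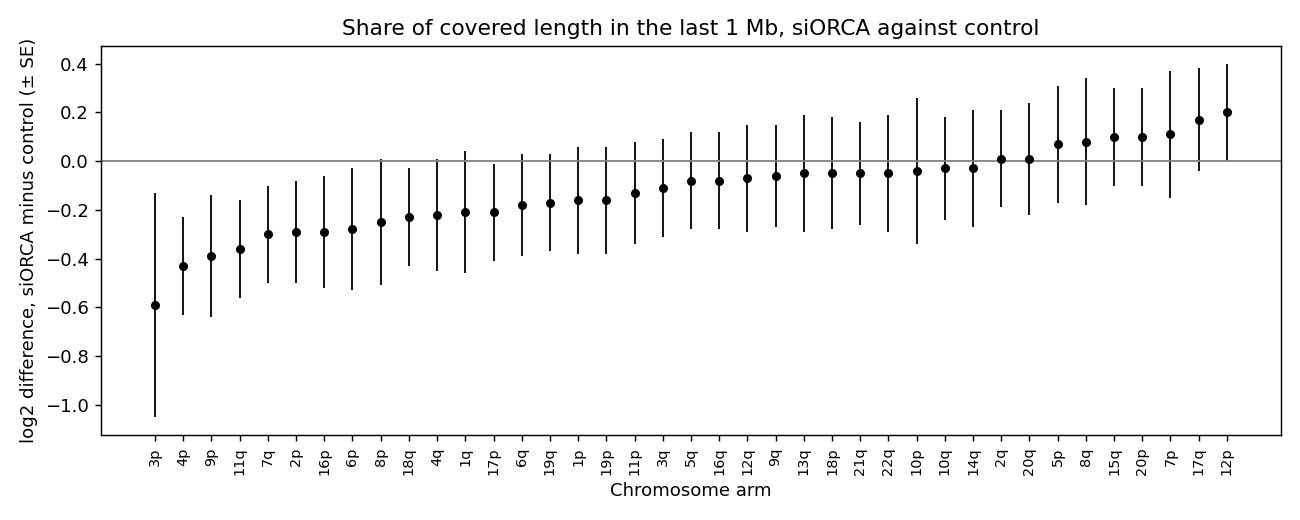
log2 difference in the share of covered length, siORCA minus control (vertical axis, points, with bars of 1 SE from limma), in the last 1 Mb of 39 arms ordered by that difference (horizontal axis). The points run from -0.59 on 3p, which has the widest bar (SE 0.46), to 0.20 on 12p, and 0 of 39 arms were called.

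Peaks in the subtelomeric megabase were wider and slightly stronger than those of the lists they come from. Their median width was 262 bp and 226 bp with gl3 and 202 bp and 262 bp with siORCA, against 216, 189, 167 and 212 bp in the whole lists. The groups overlapped in width (244 ± 25.1 and 232 ± 42.4 bp, SD, n = 2 per group; exact permutation test, p = 1). Their median fold enrichment was 3.95, 4.11, 4.73 and 4.40, against 3.82, 3.94, 4.51 and 4.21 in the whole lists. It was higher in both siORCA samples (4.03 ± 0.113 and 4.57 ± 0.237, SD, n = 2 per group; exact permutation test, p = 0.333, the smallest possible), as it was in the whole lists, and each list has its own background and depth. With the cut at a −log10 q of 3 the groups overlapped, at 5.24 and 5.16 with gl3 and 5.77 and 5.19 with siORCA (exact permutation test, p = 0.667). With lists of the same covered length the difference was 1.18, against 0.533 in the lists as deposited. That shortening removes the weakest peaks, most of all in siORCA 1, and so raises the median fold by construction. The median went from 4.73 to 6.09 in siORCA 1 and stayed at 3.95 in control 1, the shortest list. In the stretch from 1 to 5 Mb of the deposited lists the medians were close to those of the megabase, at 265, 222, 197 and 253 bp and 3.92-fold, 4.11-fold, 4.75-fold and 4.36-fold.

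Subtelomeric peaks were frequent among the strongest of each list. Of the 100 peaks with the highest fold enrichment, 12 and 13 with gl3 and 8 and 13 with siORCA lay in this megabase, which held 2.88%, 2.63%, 2.53% and 2.74% of all peaks. Of the 1000 strongest, 74, 66, 42 and 81 did, or 7.40%, 6.60%, 4.20% and 8.10%. The broad end peaks had a fold enrichment of at most 17.6 in any list.

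The 5 regions with the highest fold enrichment in all 4 lists, by the lowest of the 4 values, lay between 313 and 966 kb from the end. On 13q, a region of 752 bp (chromosome 13, 112731428 to 112732179) had a fold of 103 and 74.6 with gl3 and 104 and 101 with siORCA. On 18q, a region of 909 bp (chromosome 18, 80187299 to 80188207), 354 kb from the end, had a fold of 214, 70.6, 257 and 108. The region on 7p (chromosome 7, 312807 to 313648) had 80.6, 50.8, 157 and 63.4. Those on 20q (chromosome 20, 65655515 to 65656871) and 17q (chromosome 17, 83308997 to 83310543) had a lowest fold of 49.4 and 46.4, both in control 2. All 5 ranked among the 50 strongest peaks of both controls and of siORCA 2, and in siORCA 1 they ranked between 2 and 504. No annotation of this build was used here, so the genes at these positions are not named.

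Merged over the lists, the subtelomeric megabase held 12064 regions. All 4 samples shared 2232 of them (18.5%), and 5989 (49.6%) occurred in 1 sample only. Over all regions of the genome the shares were 10.7% and 60.1%, and from 1 to 5 Mb 16.8% and 51.1%. The share in all 4 lists was 76.5% in the first 5 kb, 17.2% from 5 to 50 kb, 16.1% from 50 to 200 kb and 18.6% further in. Among arms it ran from 4.94% on 9p to 37.6% on 8q. The regions also differed in width, with a median of 260 bp here and 202 bp over the genome.

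Regions found in both siORCA samples and neither control are called gained, and those in both controls and neither siORCA sample lost. The megabase held 621 gained and 228 lost regions, a ratio of 2.72, against 3.25 over the genome and 3.07 from 1 to 5 Mb. Pairs that cross the groups had regions of their own too, such as 581 shared by control 2 and siORCA 1 alone and 394 by control 1 and siORCA 1 alone. With lists shortened to equal covered length, 380 regions were gained and 284 were lost, a ratio of 1.34 against 1.62 over the genome, and with a −log10 q of 3 or more there were 665 and 59, a ratio of 11.3 against 13.4. With a sample left out, its group is judged by 1 list, so a region needs fewer lists on that side than on the other. The counts below are therefore uneven by definition. Without control 1 there were 1250 gained and 1975 lost, and over the genome 52864 and 104756. The counts were 1153 and 1139 without control 2, 1288 and 471 without siORCA 1, and 3500 and 449 without siORCA 2, and the genome ratios were 0.877, 4.02 and 10.3 in the same order. Gained regions outnumbered lost ones on 36 arms, by most on 7p (33 and 6), and were fewer on 6p (8 and 10) and 11q (7 and 8). None of the gained or lost regions (0 of each) lay in the first 5 kb. From 5 to 50 kb, 34 regions were gained and 9 lost, which is 10.7% and 2.82% of the regions there, against 5.44% and 1.67% of all regions of the genome. The ratio was 3.78 there and 3.25 over the genome, and the difference was not tested.

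The widest gained region lay on 22q (chromosome 22, 50978867 to 50980586), 344 kb from the end, and had 1720 bp covered in siORCA 1 and 322 bp in siORCA 2. Those on 13q (chromosome 13, 113258682 to 113260171) and 12q (chromosome 12, 132447431 to 132448747) were covered over 659 and 1457 bp, and over 834 and 1317 bp. Of the lost regions, the widest was on 6p (chromosome 6, 290910 to 292722), with 225 bp in control 1 and 1640 bp in control 2. The others were on 1p (chromosome 1, 654149 to 655620), with 712 and 1031 bp, and on 21q (chromosome 21, 44268725 to 44270134), with 236 and 1410 bp. The highest fold of any of these 6 regions in a list was 7.04, on 13q in siORCA 1, whose whole list had a median of 4.51. Others lay on either side of the median of their list. The 5 strongest shared regions were picked by fold, so their higher values follow from that choice.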

How the data were processed

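NS-seq was performed on 2 control and 2 siORCA samples. Reads were processed by the authors with BWA, SAMtools and MACS2 on T2T-CHM13, per the submitters' processing notes; the sources used here do not give versions or settings. Each deposited broad peak carries a score, a fold enrichment (a linear ratio), a −log10 p and a −log10 q. No depth is known, and no interval that needs counts is given.

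Each peak was assigned by its start to a distance from the chromosome end, and its whole length was counted there. Single values were compared with exact permutation tests over samples. Windows of 1 Mb, with the outer ones anchored at chromosome ends, entered limma 3.58.1 (R 4.3.3; lmFit, eBayes with trend) genome-wide where their mean covered length was at least 5 kb, which 2449 of 3055 did. With a pseudocount of 1000 bp added, log2 of length over the sample total was used, a scale that understates changes of sparse windows; calls were made at an adjusted p of 0.05. The fit was first tested on simulated data. Named arms were the 3 with the smallest p each way and the 3 at each extreme of coverage and of the flank ratio. Named regions were the 5 with the highest lowest fold, the 3 nearest an end (ties by width) and the 3 widest gained and lost. Members and lists were chosen with earlier results of these data known. Alternatives were a stricter list, matched list size, clipping at borders, a shorter stretch, other scalings and filters, a replicate block and leaving out each sample. The ends by assembly length, sequences and genes were not analysed, since no reference of this build was used here. Permutation tests and plots were made in Python 3.11.15 with pandas 2.3.3, numpy 2.4.6 and matplotlib 3.10.9.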

Additional observations from a re-analysis of the deposited data

How the results depend on the processing

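Of 186 recomputed values, 169 were labelled the same, 11 reversed in sign and 6 moved. For tested values the same means an unchanged sign and side of the threshold, and for arms called an equal count. For gained minus lost regions it means a change in size within a set limit, beyond which a value counts as moved. With 2 or 4 samples no exact test can pass 0.05, so these counts are no sign of stability. With the stricter list, the difference in share from 50 to 200 kb turned to -0.0257 percentage points, and the log2 differences of 17q and 15q to -0.08 and -0.03. At matched list size, the difference in the first 50 kb turned to 0.00281 percentage points and that in median width to 5.25 bp. A terminal stretch of 500 kb turned the mean log2 ratio to the flank to -0.17. Gained minus lost regions, 393 in the lists as deposited, were 606 with the stricter list, 96 at matched list size and 203 with gaps of 1 kb merged. The causes were not tested. With each sample left out, gained minus lost ran from -725 (without control 1) to 3051 (without siORCA 2). There the group that lost a sample is judged by 1 list, so its side of the count is raised by definition. The difference in the first 50 kb ran from -0.0576 to 0.0107 percentage points, that from 50 to 200 kb from -0.00216 to 0.0133 and that in median width from -41.8 to 18.2 bp. With the replicate number as a block, 0 arms were called, with a lowest adjusted p of 0.997, and it changed no call of an arm; same-numbered samples deviated in opposite ways (r = -0.457 over 2449 windows, a description), and a crossed block, chosen after seeing the data, also called 0 arms. The list of arms called stayed empty (0) in every setting of the limma fit that kept all 4 samples. In these settings 0 to 3 arms had an unadjusted p under 0.05, the most with the crossed block. In the main fit it was 1 of 39 arms, against 75 of 2449 windows.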

Other observations

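The ends that the definition leaves out were covered as well. At the outermost base pairs of the short arms of chromosomes 13, 14, 15, 21 and 22 and of both arms of chromosome X, each list had a peak within 308 bp of the end. On 13p the last 1 Mb held only 2.54 kb in control 1, 2.15 kb in control 2, 2.54 kb in siORCA 1 and 0.579 kb in siORCA 2, all of it within the first 50 kb. On 14p it held 12.2, 43.1, 88.1 and 6.91 kb in the same order, so control 2 and siORCA 1 were far above the other samples there. On Xq it held 5.72, 7.69, 9.94 and 4.48 kb. The outermost peak was narrowest in siORCA 2 on 13p, 14p, 15p, 21p, 22p, Xp and Xq.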
